A study of Mus musculus with 92 samples.

Results

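The 7 genes described here are Xiap, Birc2, Apaf1, Bcl2, Cdkn1b, Trp53 and Myc, chosen by name as messages reported to need the initiation factor eIF4G2 for translation without the cap. Each was matched by its symbol to 1 of the 54532 genes in the count tables. The libraries measure RNA and not translation or protein, so the values below are message levels only. The data were 92 mouse RNA-seq libraries in 21 groups, with 8652040 to 37611126 counted reads per library.

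In every deletion experiment a tamoxifen-dependent Cre (CreER) removed a loxP-flanked (floxed) part of Eif4g2. Rosa26-CreER mice, in which the ubiquitously active Rosa26 locus drives CreER, gave crypts (4 homozygous and 5 heterozygous deletion libraries) and villi (5 and 5) on day 9. Vil1-CreER mice, in which the villin promoter limits CreER to the gut epithelium, gave crypts (3 homozygous, 4 heterozygous) and villi (6 homozygous, 4 heterozygous) at month 3, after tamoxifen at 100 mg/kg on 4 days. The tissue controls were mice with a heterozygous deletion, so 1 copy of Eif4g2 was missing in them too. A first set of Rosa26-CreER flox/flox small intestinal organoids received DMSO (3 libraries) or 0.5 µM 4-hydroxytamoxifen (4-OHT, 3 libraries) for 24 h and was collected on day 6. This set had no organoids that were given 4-OHT and kept Eif4g2, so deletion and 4-OHT cannot be told apart in it. In a second set all organoids received 4-OHT in that way, and they were flox/flox, flox/+ or CreER-only, with 4 libraries each. Fetal intestinal spheroids, a culture of fetal gut epithelium, were flox/flox (6 lines) or flox/+ (5 lines), each with DMSO and with 4-OHT at 0.5 µM for 24 h, and were collected on day 6. In a further set, 4 organoid lines were cultured for 4 days with DMSO or with 3, 5 or 10 µM A-485, which blocks p300 and CBP, enzymes that acetylate histones. Of these lines, replicate 1 was Eif4g2 +/+ and the other 3 were flox/flox without 4-OHT. The labels do not say that all replicates were separate mice or cultures, so the p-values measure the spread between these libraries.

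Most messages are translated after the cap at their 5′ end is bound by eIF4E, which holds the scaffold eIF4G. The protein eIF4G2, also called DAP5, resembles the end of eIF4G that recruits the helicase eIF4A and the ribosome-binding factor eIF3 but lacks the part that binds eIF4E. It has been reported to support translation of messages with internal ribosome entry sites, among them messages for regulators of apoptosis and of the cell cycle. In the gut, crypts hold dividing stem and progenitor cells, villi carry differentiated cells that are later shed, and the 7 genes act in survival, division and death of such cells.

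The tables place Xiap (ENSMUSG00000025860) at X:42059679-42109656 and Birc2 (ENSMUSG00000057367) at 9:7818227-7837064 in GRCm38. Apaf1 (ENSMUSG00000019979) lies at 10:90989311-91082770, Bcl2 (ENSMUSG00000057329) at 1:106538178-106714274 and Cdkn1b (ENSMUSG00000003031) at 6:134920401-134925513. Trp53 (ENSMUSG00000059552) lies at 11:69580359-69591873 and Myc (ENSMUSG00000022346) at 15:61985391-61990374. Bcl2 overlaps the antisense gene D630008O14Rik, and Apaf1 overlaps a predicted small nuclear RNA gene on the other strand. No source used here gives the use of strand in counting, so the counts of Bcl2 and Apaf1 may include reads of those genes. RefSeq promoter entries (GRCm38.p6) were found for 6 of the 7 genes. The 250 bases before the first listed start are printed 5′ to 3′ on the gene's strand for the 3 genes whose RNA rose in most deletion comparisons and for Bcl2, whose direction differed between tissues. Capitals mark each GC box (GGGCGG or its reverse complement CCGCCC) and the cAMP response element (TGACGTCA, its own reverse complement).
Apaf1, chr10:91082744-91082993, minus strand: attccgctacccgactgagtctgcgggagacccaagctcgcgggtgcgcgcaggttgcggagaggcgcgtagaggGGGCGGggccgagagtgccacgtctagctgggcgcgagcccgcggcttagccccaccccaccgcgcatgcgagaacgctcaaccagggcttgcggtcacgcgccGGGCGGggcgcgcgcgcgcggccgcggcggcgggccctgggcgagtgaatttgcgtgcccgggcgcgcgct
Xiap, chrX:42068148-42068397, plus strand: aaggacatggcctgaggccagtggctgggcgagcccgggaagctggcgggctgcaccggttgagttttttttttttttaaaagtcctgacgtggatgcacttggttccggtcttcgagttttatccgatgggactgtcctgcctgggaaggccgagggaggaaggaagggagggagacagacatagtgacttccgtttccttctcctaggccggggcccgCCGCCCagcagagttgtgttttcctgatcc
Birc2, chr9:7837058-7837307, minus strand: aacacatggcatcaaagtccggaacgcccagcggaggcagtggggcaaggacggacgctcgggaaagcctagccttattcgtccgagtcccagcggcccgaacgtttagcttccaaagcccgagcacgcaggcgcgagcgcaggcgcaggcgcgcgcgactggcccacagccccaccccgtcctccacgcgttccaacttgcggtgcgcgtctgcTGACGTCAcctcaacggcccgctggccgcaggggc
Bcl2, chr1:106714291-106714540, minus strand: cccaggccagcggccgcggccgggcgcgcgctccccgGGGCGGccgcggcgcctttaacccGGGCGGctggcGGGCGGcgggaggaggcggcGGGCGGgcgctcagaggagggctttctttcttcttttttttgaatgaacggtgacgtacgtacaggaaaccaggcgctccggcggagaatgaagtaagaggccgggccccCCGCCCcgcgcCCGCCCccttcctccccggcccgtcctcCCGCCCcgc

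The 4 windows differed in composition. Apaf1 had a GC content of 75.6% with 42 CpG and 2 GC boxes, Bcl2 had 74.8% with 36 CpG and 7 GC boxes, Birc2 had 68.4% with 31 CpG and no GC box, and Xiap had 57.6% with 13 CpG and 1 GC box. Over all 32851 entries the median was 52.4% GC and 6 CpG, and 32.7% of windows held a GC box on either strand. The cAMP response element, found in the Birc2 window once, was present in 1.55% of all windows. The Cdkn1b window (64.4% GC, 28 CpG) held 1 GC box and 2 CCAAT boxes, which were searched by those letters and by their reverse complement ATTGG and occurred in 33.8% of all windows. The Trp53 window (52.8% GC, 9 CpG) held 1 of these. It also held 1 TATA box, searched as TATAAA and by the reverse complement TTTATA, which 12.4% of all windows held. Xiap has 2 further listed starts and Birc2 has 1, whose windows differ from those printed. The further Birc2 window had 61.2% GC, 19 CpG, 2 GC boxes and no cAMP response element. Those of Xiap had 46.4% GC with 1 GC box and 39.2% GC with none.

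Eif4g2 itself was checked first. Levels are CPM, read counts relative to library size, after a common TMM scaling of all 92 libraries. Its mean level was 116.7 CPM in homozygous against 451.0 CPM in heterozygous Rosa26-CreER crypts, 68.7 against 424.9 CPM in the villi, 299.4 against 582.5 CPM in Vil1-CreER crypts and 173.7 against 435.7 CPM in the villi. With 4-OHT, flox/flox cultures had 124.9 CPM against 643.5 CPM with DMSO in the first organoid set, 207.5 CPM against 1099.5 CPM in CreER-only organoids of the second set, and 110.8 CPM against 787.0 CPM with DMSO in spheroids. No homozygous or flox/flox 4-OHT library reached its control group, and Vil1-CreER homozygous crypts kept the largest share, with a fold of 0.504. The tissue labels went with the markers: the summed level of 7 crypt markers was 9248.1 to 23118.8 CPM in heterozygous crypts and 49.8 to 407.3 CPM in heterozygous villi. Of 17 immune markers, 6 to 13 were at 0 in every library of a culture group, and none was at 0 throughout a tissue group. In 4 of the spheroid lines the crypt marker sum with DMSO was 3292.4 to 10295.8 CPM, against 232.9 to 849.9 CPM in the other 7, and results that rest on spheroids are given with and without them. In Rosa26-CreER tissue, Y-linked RNA was present in all heterozygous libraries but in 1 of 4 homozygous crypt and 2 of 5 homozygous villus libraries, so sex overlapped genotype there. In bulk RNA, fewer cells of a type and less RNA per cell cannot be told apart.

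A gene was called when its adjusted p from edgeR's quasi-likelihood F-test, with Benjamini-Hochberg adjustment over all tested genes, was under 0.05. All 7 genes passed the filter on low counts in every comparison. Deletion of both copies was compared with its controls in 9 comparisons. Those of flox/flox with flox/+ and with CreER-only organoids share the flox/flox libraries, and both spheroid comparisons share the flox/flox 4-OHT libraries. In Rosa26-CreER crypts 3 of the 7 genes were called, where 20.2% of all tested genes were, and the median log2 fold change was 0.29 over the 7 and 0.04 over all genes. In Rosa26-CreER villi 4 were called against a background of 33.2% (medians 0.36 and -0.01). In Vil1-CreER crypts 1 was called against 29.3% (medians 0.03 and 0.01), and in the villi 5 against 42.5% (medians 0.23 and 0.05). In the first organoid set 4 were called against 35.4% (medians 0.33 and 0.03). In the second set 4 were called against flox/+ (background 46.8%, medians 0.14 and -0.01) and 4 against CreER-only (background 45.3%, medians 0.24 and -0.003). In flox/flox spheroids 2 were called between 4-OHT and DMSO (background 19.1%, medians 0.27 and -0.02) and 1 between flox/flox and flox/+ with 4-OHT (background 10.5%, medians 0.19 and 0.01). The fit of 4-OHT against DMSO did not pair the lines, and with each line as a block more of the 7 were called. The shares called were thus near the background in several comparisons, and the sections on the single genes show which members they were.

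**Figure D1:**
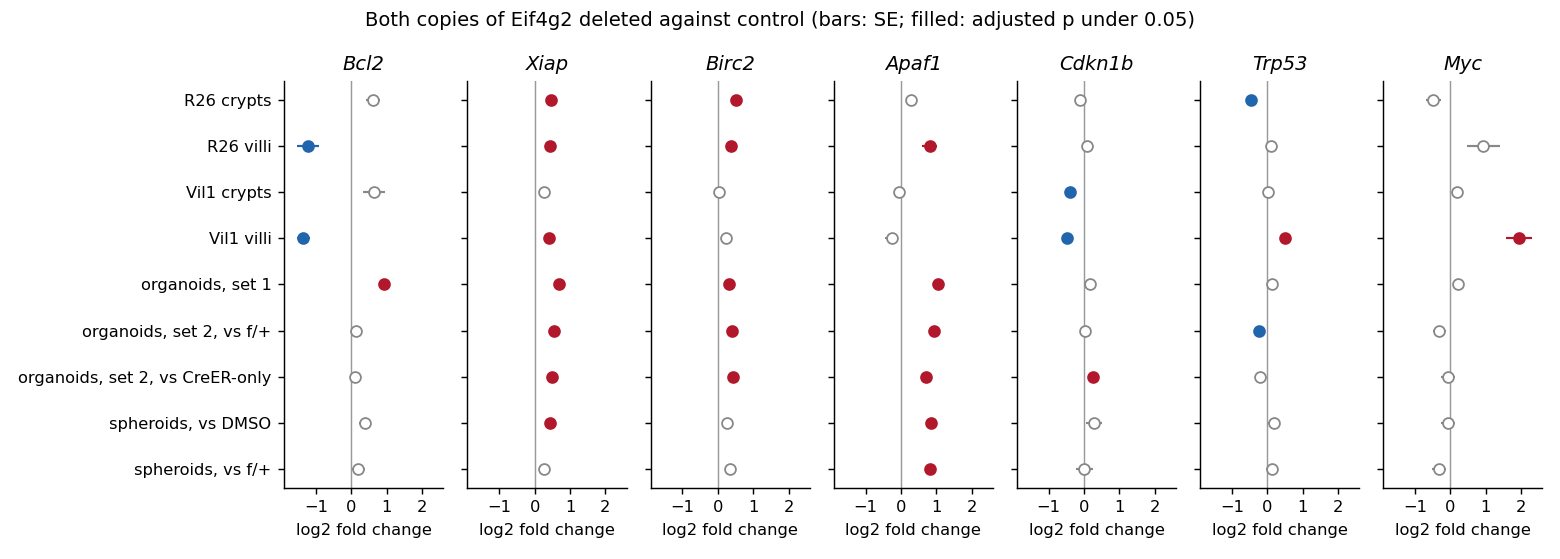
Log2 fold change (points, x axis) with its SE (bars) for each of the 7 genes in the 9 comparisons of deletion of both Eif4g2 copies with controls (y axis). Filled red points were called higher, filled blue points lower and open points not called: Xiap and Birc2 lie right of 0 in all 9, and Bcl2 lies on the left only in the villi.

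Xiap encodes the X-linked inhibitor of apoptosis, which binds and blocks caspases. Its RNA was higher after deletion of both copies in all 9 comparisons, by 0.26 to 0.69 on the log2 scale, and was called in 7. In Rosa26-CreER crypts it was 134.0, 101.6, 115.1 and 105.7 CPM in homozygous and 81.5, 74.2, 75.5, 86.0 and 90.5 CPM in heterozygous libraries. The groups did not overlap, and the log2 fold change was 0.47 ± 0.10 (SE), with an adjusted p of 0.0138. In the same crypts 7 of 7 crypt markers fell, with a median of -1.52, where 20.2% of all genes were called. The part of these markers in the Xiap result was not tested. In Rosa26-CreER villi the homozygous libraries had 220.8, 317.2, 254.3, 313.1 and 240.2 CPM and the heterozygous ones 230.1, 199.3, 175.0, 177.6 and 171.3 CPM. One heterozygous library lay among the homozygous ones, and the log2 fold change was 0.43 ± 0.12 (adjusted p = 0.0183). With a covariate for Y-linked RNA the villus difference was 0.42 with an adjusted p of 0.0897, and without heterozygous replicate 5 the adjusted p was 0.0503.

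In Vil1-CreER villi, Xiap ranged from 262.0 to 443.3 CPM (median 322.0) in 6 homozygous libraries and was 279.7, 229.4, 240.1 and 218.9 CPM in heterozygous ones. The groups overlapped, and the difference of 0.42 ± 0.15 had an adjusted p of 0.0412. That call was lost with DESeq2's test (0.40, adjusted p = 0.0570) and without any 1 of heterozygous replicates 2, 3 and 4 and homozygous replicates 1, 5 and 6 (adjusted p up to 0.121). In Vil1-CreER crypts the homozygous libraries had 135.3, 140.6 and 163.6 CPM, all above the heterozygous 108.1 to 133.8 CPM, but the difference of 0.27 ± 0.10 was not called (adjusted p = 0.0849). Without heterozygous replicate 3 it was called (0.35, adjusted p = 0.0373).

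Organoids showed Xiap apart in every library. In the first set 4-OHT cultures had 183.3, 181.9 and 146.0 CPM against 110.2, 108.9 and 96.1 CPM with DMSO, a log2 fold change of 0.69 ± 0.11 (adjusted p = 0.00310), higher in 3 of 3 pairs. Among organoids of the second set, flox/flox ones had 166.1, 184.4, 196.6 and 195.4 CPM. The flox/+ organoids had 127.4, 126.7, 124.2 and 125.9 CPM and the CreER-only ones 144.3, 126.3, 136.8 and 120.3 CPM. The flox/flox libraries lay above both control groups, by 0.54 ± 0.07 (adjusted p = 1.01e-05) and 0.49 ± 0.07 (adjusted p = 3.11e-05). Of 7 crypt markers 5 fell in the first set (background 35.4%), 6 against flox/+ (46.8%) and 7 against CreER-only organoids (45.3%). None rose, and the medians were -2.11, -0.85 and -1.02. Of 7 villus markers 6, 3 and 3 fell in these comparisons and none rose. The part of these markers in the organoid results of the 7 genes was not tested.

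In flox/flox spheroids, Xiap was 261.6 to 347.4 CPM (median 314.4) with 4-OHT and 187.0 to 267.2 CPM (median 228.3) with DMSO, and it was higher with 4-OHT in 6 of 6 lines. The groups overlapped slightly, and the difference was 0.43 ± 0.13 (adjusted p = 0.0220). This fit did not pair 4-OHT with DMSO of the same line, although residual correlations within these lines were 0.271 to 0.718. Without the 4 lines with high crypt markers the difference was 0.41 with an adjusted p of 0.116. The call was also lost without any 1 of the 4-OHT library of replicate 2 and the DMSO libraries of replicates 5 and 6 (adjusted p up to 0.0568), and without a filter on low counts (adjusted p = 0.0625). Against flox/+ spheroids with 4-OHT (186.5 to 301.9 CPM, median 266.6) the difference of 0.26 ± 0.13 was not called (adjusted p = 0.239).

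**Figure D2:**
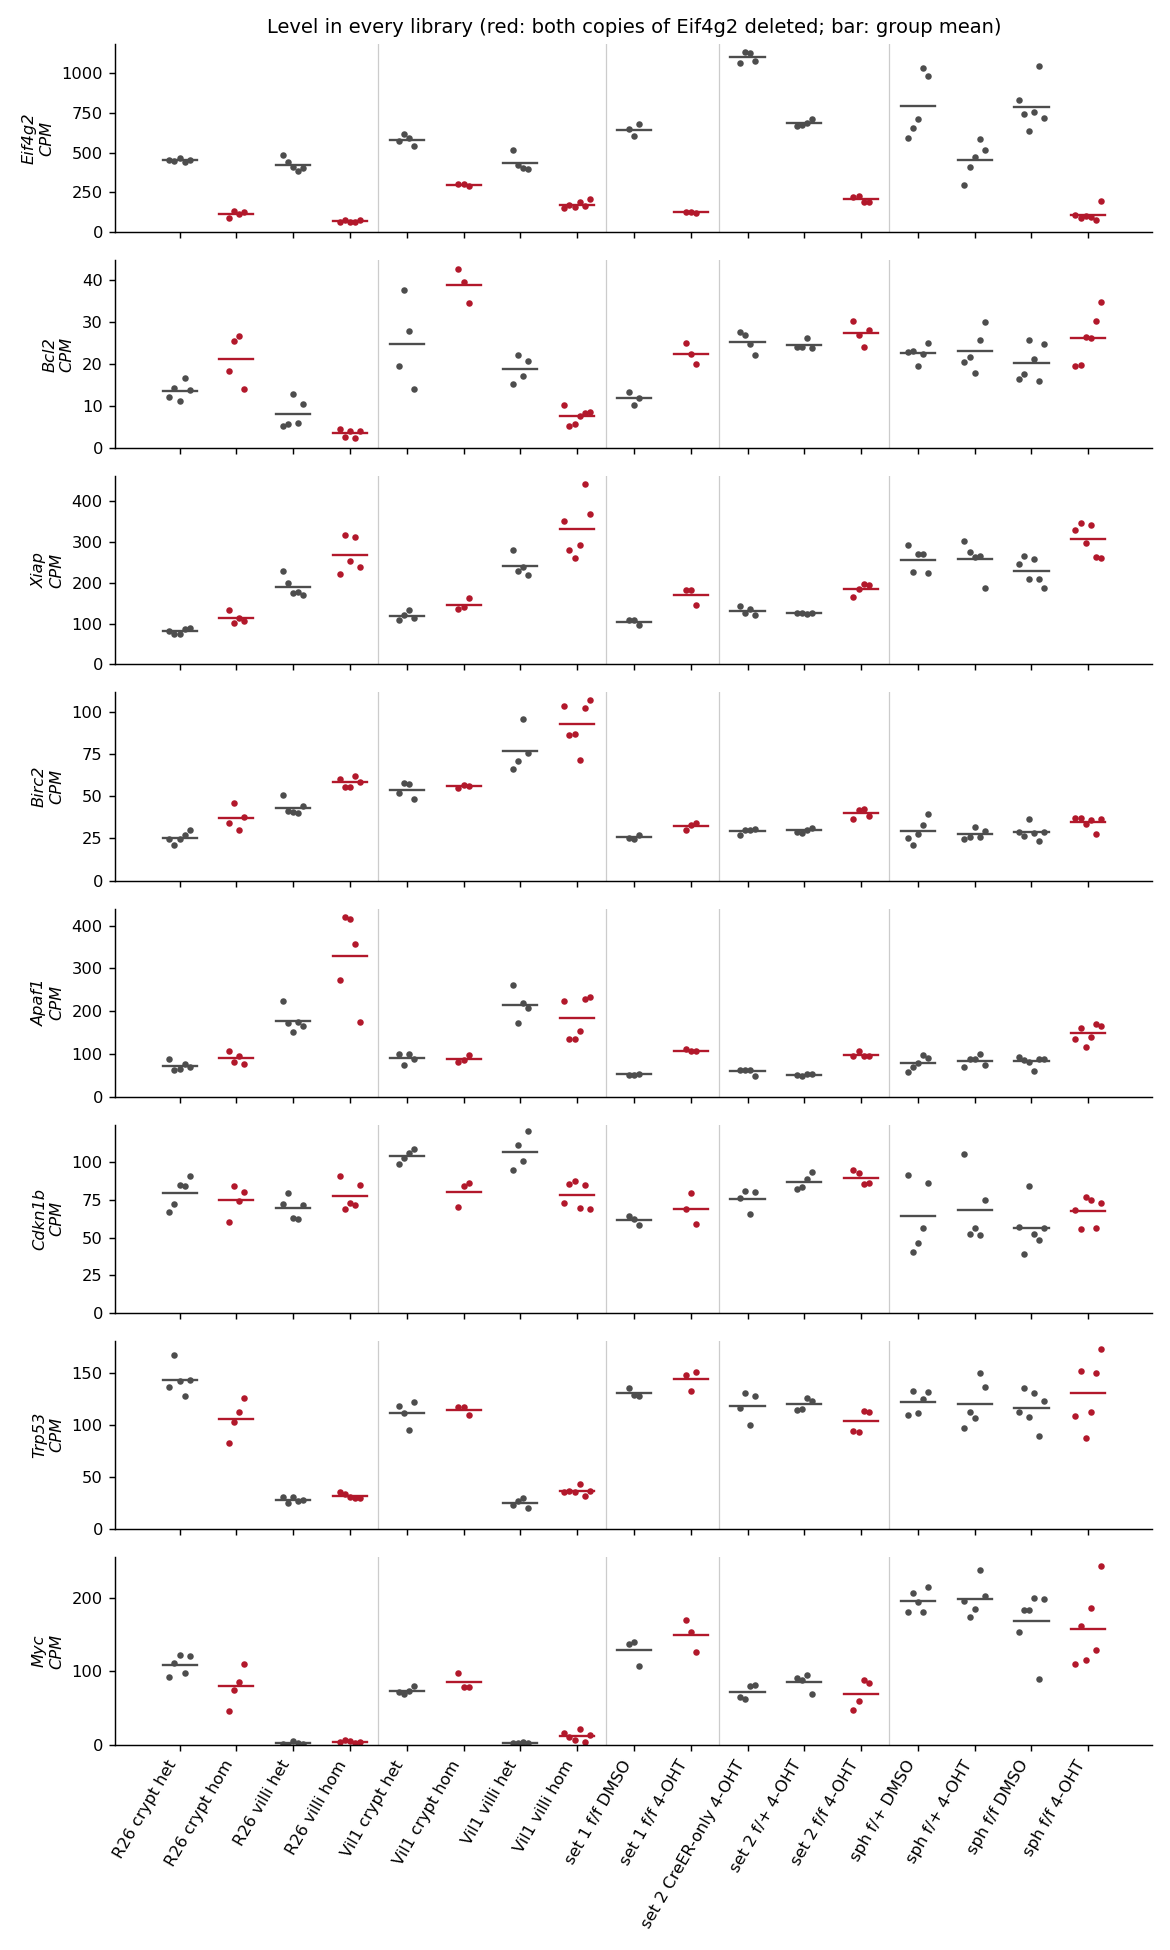
Level of Eif4g2 and of each of the 7 genes in CPM (y axes from 0) in every library of the tissue, organoid and spheroid groups (x axis), with red for groups with both Eif4g2 copies deleted, grey for the others and a bar at each group mean. In cultures every flox/flox 4-OHT library has more Apaf1 than the controls of its own set, and Myc and Trp53 are low in all villus groups.

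Birc2 encodes cIAP1, a ubiquitin ligase of the same inhibitor family that acts in TNF receptor signalling. Its log2 fold change was positive in all 9 comparisons (0.03 to 0.52) and called in 5. In Rosa26-CreER crypts homozygous libraries had 34.0, 46.1, 30.1 and 37.6 CPM and heterozygous ones 24.8, 20.9, 24.8, 26.8 and 30.0 CPM. The groups just failed to overlap, at 0.52 ± 0.14 (adjusted p = 0.0313). This call was lost with the Y-linked covariate (0.43, adjusted p = 0.235) and without any 1 of homozygous replicate 3 and heterozygous replicates 1, 2, 3 and 4 (adjusted p up to 0.0710). The part of the lower crypt markers in these crypts was not tested for Birc2 either. In Rosa26-CreER villi the homozygous libraries had 60.5, 55.4, 55.4, 61.8 and 58.2 CPM, all above the heterozygous 50.6, 41.3, 40.5, 39.9 and 44.2 CPM. That difference was 0.36 ± 0.09 (adjusted p = 0.00856), or 0.34 (adjusted p = 0.0574) with the Y-linked covariate.

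In the first organoid set Birc2 was 29.9, 32.9 and 34.3 CPM with 4-OHT and 25.5, 24.6 and 26.8 CPM with DMSO. The groups did not overlap and the difference was 0.33 ± 0.09 (adjusted p = 0.0283), a call lost when the A-485 libraries joined the fit (adjusted p = 0.175) and without any 1 of DMSO replicates 1 and 2 and 4-OHT replicate 2 (adjusted p up to 0.108). The flox/flox organoids of the second set had 36.8, 41.6, 42.5 and 38.3 CPM. All lay above the 28.2 to 31.4 CPM of flox/+ and the 26.8 to 30.8 CPM of CreER-only organoids, by 0.40 ± 0.07 (adjusted p = 2.88e-04) and 0.42 ± 0.07 (adjusted p = 1.99e-04). Birc2 was not called in spheroids (0.27 ± 0.14, adjusted p = 0.188, against DMSO) or in Vil1-CreER crypts (0.03 ± 0.08, adjusted p = 0.830) and villi (0.23 ± 0.14, adjusted p = 0.206).

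The other 7 genes of the inhibitor of apoptosis family tested were counted in the same way. In Rosa26-CreER tissue none rose and 3 fell in crypts, where 20.2% of all genes were called, and none rose and 1 fell in villi, where 33.2% were. In Vil1-CreER tissue none rose and 5 fell in crypts (background 29.3%), and none was called in villi (background 42.5%), where the list's median was -0.13. Of these genes none rose and 4 fell in the first organoid set (background 35.4%), and in flox/flox spheroids none rose and 3 fell (background 19.1%). Naip5 and Naip6, which encode sensors of bacterial proteins, made up part of the falls, by 1.48 ± 0.16 and 1.75 ± 0.16 on the log2 scale in the first organoid set (adjusted p = 9.50e-04 and 5.43e-04). These are near-identical copies, so reads may be split between them. Birc5, which encodes survivin and is expressed in dividing cells, fell by 0.80 ± 0.17 in Rosa26-CreER crypts (adjusted p = 0.0116). In the second organoid set Birc3, which encodes cIAP2, was the 1 that rose against flox/+ (0.53 ± 0.10, adjusted p = 5.07e-04), beside 4 that fell (background 46.8%). Of 3 genes for antagonists of these inhibitors, 1 rose and none fell in Rosa26-CreER villi: Xaf1, whose product binds XIAP, by 0.75 ± 0.19 (adjusted p = 0.0121). Xaf1 rose by 2.88 ± 0.63 in the first organoid set (adjusted p = 0.0116) and by 3.14 ± 0.65 in flox/flox spheroids with 4-OHT against DMSO (adjusted p = 0.00214). None of the 3 was called in Rosa26-CreER crypts or in Vil1-CreER crypts and villi.

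Apaf1 encodes the scaffold of the apoptosome, which binds cytochrome c and activates the initiator caspase of the mitochondrial death pathway. Its RNA rose in every comparison in culture and in 1 of 4 in tissue. In the first organoid set it was 110.5, 106.4 and 107.3 CPM with 4-OHT and 51.3, 51.3 and 53.9 CPM with DMSO. The 4-OHT libraries were all near a 2.06-fold level, a log2 fold change of 1.05 ± 0.07 (adjusted p = 2.35e-04). In the second set flox/flox organoids had 95.0, 106.2, 95.7 and 94.9 CPM, flox/+ ones 50.2, 48.3, 52.3 and 52.1 CPM and CreER-only ones 63.4, 62.5, 61.9 and 49.6 CPM. No flox/flox library overlapped either control group, and the differences were 0.93 ± 0.07 (adjusted p = 1.66e-07) and 0.71 ± 0.07 (adjusted p = 2.12e-06). The part of the lower crypt and villus markers in these organoids, given above for Xiap, was not tested.

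Flox/flox spheroids had Apaf1 at 116.8 to 170.7 CPM (median 150.5) with 4-OHT and at 60.9 to 92.3 CPM (median 87.2) with DMSO, with higher values in 6 of 6 lines. The groups were separate, at 0.85 ± 0.14 (adjusted p = 3.46e-04). Flox/+ spheroids with 4-OHT had 70.4 to 99.2 CPM, also below every flox/flox 4-OHT library, and the difference was 0.83 ± 0.15 (adjusted p = 0.00123). Apaf1 was called in both comparisons without the 4 lines with high crypt markers as well. With 4-OHT, 4 of 8 tested stromal markers were lower in flox/flox than in flox/+ spheroids and none was higher. Their median was -3.43, and 10.5% of all genes were called. With DMSO their median was already -3.56 between the genotypes, with none called, where 0% of all genes were. The part of these markers in the Apaf1 result was not tested. The 4-OHT effect was larger in flox/flox than in flox/+ spheroids by 0.76 ± 0.21, which was not called (adjusted p = 0.0676) but was with DESeq2's test (0.73, adjusted p = 0.0496) and without the flox/+ DMSO library of replicate 1 or the flox/flox 4-OHT library of replicate 3 (adjusted p down to 0.0360). With each line as a block it was 0.75 with an adjusted p of 0.00531.

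In tissue Apaf1 followed no single direction. Homozygous Rosa26-CreER villi had 272.7, 421.5, 415.6, 358.1 and 175.0 CPM and heterozygous ones 224.2, 173.2, 152.0, 174.7 and 164.3 CPM. Of the homozygous villi 4 lay above all heterozygous ones and 1 lay among them, and the difference was 0.81 ± 0.21 (adjusted p = 0.0114). In Vil1-CreER villi the 6 homozygous libraries had 135.4 to 232.2 CPM (median 188.5) and the heterozygous ones 260.2, 171.6, 218.1 and 207.6 CPM, a difference of -0.26 ± 0.18 that was not called (adjusted p = 0.269). In crypts the differences were 0.29 ± 0.13 for Rosa26-CreER (adjusted p = 0.148) and -0.06 ± 0.13 for Vil1-CreER (adjusted p = 0.759). The genotype effect in crypts minus that in villi was -0.63 ± 0.27 for Rosa26-CreER (adjusted p = 0.131), and was called without homozygous villus replicate 5, the low one (adjusted p = 0.0180).

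Other genes of the pathway were taken from a list of 7, caspases and cytochrome c, all of which were tested. In Rosa26-CreER tissue 1 rose and none fell in crypts (background 20.2%), and none rose and 1 fell in villi (background 33.2%). In Vil1-CreER tissue none rose and 3 fell in crypts, where 29.3% of all genes were called, and 1 rose and 5 fell in villi, where 42.5% were. Casp6 was lower in these villi by 0.97 ± 0.17 (adjusted p = 5.05e-04). None rose and 2 fell in the first organoid set (background 35.4%), with Casp6 lower by 1.06 ± 0.18 (adjusted p = 0.00414). In the second set 2 rose and 3 fell against flox/+ (background 46.8%), and in flox/flox spheroids none rose and 1 fell (background 19.1%).

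Bcl2 encodes a protein of the outer mitochondrial membrane that restrains the pore formers BAX and BAK. It fell in the villi of both mouse lines, and its log2 fold change was positive in the crypts of both. In Rosa26-CreER villi it was 4.59, 2.63, 4.23, 2.54 and 4.11 CPM in homozygous and 5.27, 5.89, 12.9, 6.00 and 10.6 CPM in heterozygous libraries, from 43 to 168 counts per library. All homozygous libraries lay below, at a fall of 1.24 ± 0.31 on the log2 scale (adjusted p = 0.0102), or 1.25 with an adjusted p of 0.0708 with the Y-linked covariate. In Vil1-CreER villi it was 5.26 to 10.2 CPM (median 7.96) in homozygous and 15.4, 22.2, 17.3 and 20.8 CPM in heterozygous libraries, again with no overlap, and fell by 1.36 ± 0.19 (adjusted p = 1.21e-04). Immune markers moved with it. In homozygous Rosa26-CreER villi 8 of 17 were lower, where 18.2% of all genes were. In homozygous Vil1-CreER villi 9 of 17 were lower, where 21.6% of all genes were. No immune marker was higher in either, and none was at 0 throughout. Their summed level was 382.4 to 602.3 CPM in homozygous against 610.3 to 1689.4 CPM in heterozygous Rosa26-CreER villi, and 148.2 to 575.0 against 731.6 to 1423.4 CPM in Vil1-CreER villi. Their part in the Bcl2 result was not tested.

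In crypts Bcl2 was not called. Rosa26-CreER homozygous crypts had 18.5, 25.6, 26.8 and 14.2 CPM and heterozygous ones 12.2, 14.3, 11.3, 16.8 and 13.8 CPM, a difference of 0.62 ± 0.20 (adjusted p = 0.0585). The lowest homozygous library, replicate 5, also had the lowest immune marker sum of its group, 193.1 CPM against 1258.9 to 2896.8 CPM in the other 3. Without it the difference was called (0.78, adjusted p = 0.00738), as it was by DESeq2's test with all libraries (0.60, adjusted p = 0.0375). Vil1-CreER homozygous crypts had 42.8, 39.6 and 34.6 CPM and heterozygous ones 19.6, 37.8, 27.9 and 14.1 CPM, a difference of 0.63 ± 0.31 (adjusted p = 0.179). Without heterozygous replicate 2 that difference was called (0.88, adjusted p = 0.0361).

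The genotype effect on Bcl2 differed between crypts and villi. In a fit with an interaction term it was 1.73 ± 0.37 higher in crypts for Rosa26-CreER (adjusted p = 0.00822) and 1.95 ± 0.35 higher for Vil1-CreER (adjusted p = 0.00272). Of the 7 genes 2 passed this test for Rosa26-CreER, where 11.5% of all genes did, and 3 for Vil1-CreER, where 15.5% did. Crypts and villi of 1 animal share a label, and with the animal as a block the Rosa26-CreER value was 1.54 with an adjusted p of 0.0638, with none of the 7 called. The Vil1-CreER call for Bcl2 held with the block.

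In organoids Bcl2 rose in the first set, from 13.3, 10.4 and 12.1 CPM with DMSO to 25.1, 22.4 and 20.0 CPM with 4-OHT (0.91 ± 0.13, adjusted p = 0.00243), with no overlap. In the second set flox/flox organoids (24.1 to 30.4 CPM) overlapped flox/+ (23.8 to 26.3 CPM) and CreER-only ones (22.2 to 27.7 CPM), at 0.14 ± 0.09 and 0.10 ± 0.09 (adjusted p = 0.207 and 0.379). In the first set deletion and 4-OHT cannot be told apart, and whether the organoid sets differ from each other was not tested. In flox/flox spheroids Bcl2 was higher with 4-OHT in 6 of 6 lines, at 0.38 ± 0.17 (adjusted p = 0.126). With each line as a block the value was 0.37 with an adjusted p of 0.0179.

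Among the other BCL2 family genes, Bax, 1 of 3 pore former genes, rose by 0.80 ± 0.13 in Rosa26-CreER crypts (adjusted p = 0.00311). It also rose by 1.87 ± 0.14 in Vil1-CreER crypts (adjusted p = 1.06e-04) and by 0.79 ± 0.11 in the first organoid set (adjusted p = 0.00178). Of the 3 pore formers, 1 rose and 1 fell in Rosa26-CreER crypts, where 20.2% of all genes were called. In the second organoid set 2 rose and 1 fell against flox/+ (background 46.8%). The 1 that fell there was Bok, by 0.81 ± 0.13 (adjusted p = 9.79e-05). Of the anti-apoptotic relatives, Mcl1 rose by 0.48 ± 0.09 and Bcl2l1, which encodes BCL-XL, by 1.08 ± 0.19 in the first organoid set (adjusted p = 0.00665 and 0.00537). Bmf, a BH3-only death promoter, fell in both crypt and both villus comparisons, by 1.01 ± 0.26 in Rosa26-CreER crypts (adjusted p = 0.0265) and by 1.83 ± 0.30 in Vil1-CreER villi (adjusted p = 3.35e-04), and by 1.50 ± 0.30 in the first organoid set (adjusted p = 0.00826). The 7 BH3-only genes tested in the first organoid set had 3 rises and 1 fall, where 35.4% of all genes were called. Bcl2l2, a further anti-apoptotic relative, was not called there (0.29 ± 0.10, adjusted p = 0.0649). Bcl2a1d, a relative expressed in blood cells, fell in the villi together with Bcl2, by 2.22 ± 0.62 in Vil1-CreER (adjusted p = 0.0115).

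Cdkn1b encodes p27, an inhibitor of the cyclin-dependent kinases that drive cells out of G1. Its level varied least of the 7 genes, with group means from 56.2 to 107.0 CPM over the 21 groups, a 1.90-fold span. It fell in Vil1-CreER tissue. Homozygous crypts had 70.2, 84.2 and 86.1 CPM against 99.0, 103.1, 106.1 and 109.0 CPM, a fall of 0.41 ± 0.09 (adjusted p = 0.0102). Homozygous villi had 69.2 to 87.8 CPM (median 78.9) against 94.8, 111.3, 101.1 and 120.8 CPM, a fall of 0.49 ± 0.12 (adjusted p = 0.00514). Neither pair of groups overlapped. In the same crypts 6 of 7 crypt markers fell, where 29.3% of all genes were called. The marker sums were 1089.7 to 2000.0 CPM against 9248.1 to 12360.2 CPM, and the mitochondrial share of reads was 30.4% to 40.3% against 17.5% to 30.8%. In the same villi 9 of 17 immune markers fell, as given above for Bcl2, and the part of these markers in the Cdkn1b result was not tested. In Rosa26-CreER tissue the groups overlapped in crypts (-0.12 ± 0.12, adjusted p = 0.505) and villi (0.09 ± 0.11, adjusted p = 0.555). In the first organoid set it was higher with 4-OHT in 3 of 3 pairs (0.16 ± 0.12, adjusted p = 0.311), and called at an adjusted p of 0.0498 without 4-OHT replicate 3.

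In the second organoid set Cdkn1b was 94.5, 92.9, 85.8 and 86.1 CPM in flox/flox, 82.0, 83.6, 88.6 and 93.2 CPM in flox/+ and 76.1, 80.6, 65.9 and 80.5 CPM in CreER-only organoids. The flox/flox libraries lay above the CreER-only ones (0.24 ± 0.07, adjusted p = 0.00993) and overlapped the flox/+ ones (0.03 ± 0.07, adjusted p = 0.712). In flox/flox spheroids the value was 0.27 ± 0.23 (adjusted p = 0.444), or 0.30 (adjusted p = 0.0341) with each line as a block. Of the 6 related inhibitors, Cdkn1a, which encodes p21, rose by 1.36 ± 0.19 in Vil1-CreER crypts (adjusted p = 0.00214). Cdkn1c, which encodes p57, fell by 1.47 ± 0.27 there (adjusted p = 0.00493) and by 1.33 ± 0.19 in the first organoid set (adjusted p = 0.00212). Among 12 genes for G1 cyclins, their kinases and the ligase that degrades p27, 6 rose and none fell in Vil1-CreER crypts, where 29.3% of all genes were called, with Ccnd1, which encodes cyclin D1, at 1.01 ± 0.14 (adjusted p = 0.00163). In Vil1-CreER villi 4 rose and 1 fell (background 42.5%), in Rosa26-CreER crypts 2 rose and 1 fell (20.2%) and in Rosa26-CreER villi none rose and 2 fell (33.2%). The first organoid set had 4 rises and no fall (35.4%), whereas in the second set 1 rose and 5 fell against flox/+ (46.8%) and 2 rose and 6 fell against CreER-only (45.3%). Flox/flox spheroids had 2 rises and no fall (19.1%).

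Trp53 encodes p53, the transcription factor that arrests or kills damaged cells. Its RNA was called higher in 1 of the 9 comparisons and lower in 2, with log2 fold changes from -0.46 to 0.50. In Rosa26-CreER crypts it was 82.5, 102.8, 112.0 and 125.7 CPM in homozygous and 136.4, 166.8, 141.8, 128.0 and 143.1 CPM in heterozygous libraries, with no overlap, and fell by 0.46 ± 0.12 (adjusted p = 0.0256). The call was lost without a filter on low counts (adjusted p = 0.0709) and without any 1 of homozygous replicates 1, 3 and 4 and heterozygous replicates 2, 3 and 5 (adjusted p up to 0.0836). Crypt markers fell in the same libraries, 7 of 7, where 20.2% of all genes were called. The marker sums were 1914.6 to 8133.6 CPM against 17371.0 to 23118.8 CPM, and the mitochondrial share of reads was 13.7% to 25.2% against 6.24% to 12.4%. The part of these markers in the result was not tested. In Vil1-CreER crypts crypt markers also fell (6 of 7, background 29.3%), and Trp53 was 117.1, 117.3 and 109.1 CPM against 94.9 to 122.2 CPM, a difference of 0.01 ± 0.09 (adjusted p = 0.960).

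In Vil1-CreER villi Trp53 rose, from 23.0, 27.3, 29.4 and 20.1 CPM to 31.3 to 43.4 CPM (median 35.8), with no overlap (0.50 ± 0.13, adjusted p = 0.00775). In the same villi 9 of 17 immune markers fell, where 42.5% of all genes were called. Of 7 crypt markers 1 rose and 2 fell, with a median of 0.83. The part of these markers in the Trp53 result was not tested. In Rosa26-CreER villi the groups overlapped at 29.5 to 35.9 and 24.6 to 31.0 CPM (0.10 ± 0.10, adjusted p = 0.474). The genotype effect was lower in crypts than in villi by 0.67 ± 0.16 for Rosa26-CreER (adjusted p = 0.0149) and by 0.52 ± 0.16 for Vil1-CreER (adjusted p = 0.0423). With the animal as a block the adjusted p values were 0.0804 and 0.0895, and without a filter on low counts the second was 0.0620. The first call was also lost without homozygous crypt replicate 1 (adjusted p = 0.0545). The second was lost without any 1 of the 3 homozygous crypts, heterozygous crypts 1 and 4, heterozygous villi 1 and 4 and homozygous villi 2, 3, 4 and 6 (adjusted p up to 0.101).

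Of the 5 comparisons in organoids and spheroids after deletion of both copies, Trp53 was called in 1. In flox/flox organoids of the second set it was 94.6, 93.6, 113.7 and 112.2 CPM, just below the 114.7 to 126.3 CPM of flox/+ organoids, a fall of 0.23 ± 0.09 (adjusted p = 0.0415). DESeq2's test did not call it (adjusted p = 0.0605), nor did fits without any 1 of flox/flox replicates 1 and 2 and flox/+ replicates 2, 3 and 4 (adjusted p up to 0.125). Against CreER-only organoids the value was -0.20 ± 0.09 (adjusted p = 0.0643), which was called without a filter on low counts (adjusted p = 0.0422) and without replicate 3 of either group (adjusted p down to 0.0112). The first organoid set had 0.13 ± 0.08 (adjusted p = 0.250). Flox/flox spheroids spread from 87.4 to 173.2 CPM (median 130.8) with 4-OHT and from 89.2 to 135.9 CPM (median 117.5) with DMSO, with overlap (0.18 ± 0.16, adjusted p = 0.466).

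Of 18 genes that p53 is known to activate, among them Apaf1, 7 rose and none fell in Rosa26-CreER crypts, where 20.2% of all genes were called, with a median log2 fold change of 0.45 against 0.04 over all genes. In Rosa26-CreER villi 6 of 17 tested rose and 3 fell (background 33.2%, median 0.50). In Vil1-CreER crypts 13 rose and none fell (background 29.3%, median 1.14), and in the villi 11 rose and 1 fell (background 42.5%, median 0.56). Of the 18 genes, 13 rose and 1 fell in the first organoid set (background 35.4%, median 0.74), and in the second set 15 rose and 1 fell against flox/+ (background 46.8%, median 0.77). Flox/flox spheroids had 4 rises and no fall (background 19.1%, median 0.33). Zmat3, a p53-induced RNA-binding protein gene, rose by 1.50 ± 0.13 in Rosa26-CreER crypts (adjusted p = 2.66e-04) and by 2.09 ± 0.18 in the second organoid set against flox/+ (adjusted p = 3.63e-06). Mdm2, whose product marks p53 for degradation, rose by 0.53 ± 0.11 in Rosa26-CreER crypts (adjusted p = 0.00985), by 0.96 ± 0.10 in the first organoid set (adjusted p = 8.94e-04) and by 0.90 ± 0.28 in flox/flox spheroids (adjusted p = 0.0287). The list was chosen with earlier results of these data known and is no independent evidence of direction.

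Myc encodes a transcription factor that drives growth and division. Of the 9 comparisons it was called in Vil1-CreER villi alone, where it rose from 2.83, 2.84, 4.10 and 2.64 CPM to 16.3, 10.6, 7.50, 21.8, 4.62 and 13.6 CPM. The groups did not overlap, although 1 homozygous library lay close to the highest control, and the log2 fold change was 1.94 ± 0.37 (adjusted p = 0.00110). Crypt marker sums there overlapped, at 77.1 to 425.8 CPM in homozygous and 117.4 to 407.3 CPM in heterozygous villi. Of the 7 crypt markers 1 was higher and 2 were lower, where 42.5% of all genes were called. Their median log2 fold change was 0.83, against 0.05 over all genes. The part of these markers in the Myc result was not tested. In Rosa26-CreER villi Myc was 4.54, 6.41, 6.09, 3.52 and 3.74 CPM against 1.51, 0.826, 5.93, 2.28 and 1.57 CPM, from 15 to 105 counts per library, and was not called (0.93 ± 0.46, adjusted p = 0.140). One heterozygous library, replicate 3, lay among the homozygous ones, and without it the difference was called (1.61, adjusted p = 0.00353). It was also called when the crypt libraries joined the fit (1.03, adjusted p = 0.0450).

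In Rosa26-CreER crypts Myc was 46.8, 75.2, 85.7 and 110.5 CPM in homozygous and 92.8, 112.0, 122.6, 97.5 and 120.5 CPM in heterozygous libraries, a difference of -0.48 ± 0.20 (adjusted p = 0.120). The homozygous library among the heterozygous ones was replicate 5, which also had the highest crypt marker sum of its group, and without it Myc was called (adjusted p = 0.0274). With the Y-linked covariate the value was -1.21 with an adjusted p of 0.0121. Vil1-CreER crypts had 98.2, 79.2 and 78.5 CPM against 69.4 to 80.0 CPM (0.18 ± 0.10, adjusted p = 0.217). The genotype effect on Myc was lower in crypts than in villi by 1.79 ± 0.47 for Vil1-CreER (adjusted p = 0.0185) and by 1.55 ± 0.50 for Rosa26-CreER, which was not called (adjusted p = 0.0523). The Rosa26-CreER value was called without any 1 of homozygous crypt replicate 5, homozygous villus replicate 5 and heterozygous villus replicate 3 (adjusted p down to 0.00199), and by DESeq2's test with all libraries (-1.54, adjusted p = 0.0276).

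In cultures Myc overlapped in every comparison. The first organoid set had 169.5, 153.7 and 126.8 CPM with 4-OHT against 137.6, 140.1 and 107.6 CPM (0.22 ± 0.14, adjusted p = 0.267). The flox/flox organoids of the second set spread from 47.4 to 87.8 CPM, flox/+ ones from 68.9 to 95.4 CPM and CreER-only ones from 62.9 to 81.3 CPM. In flox/flox spheroids Myc was 110.4 to 243.0 CPM (median 145.4) with 4-OHT and 90.2 to 199.4 CPM (median 182.7) with DMSO (-0.07 ± 0.19, adjusted p = 0.851).

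Of 18 genes that MYC is known to activate, 1 rose and 1 fell in Rosa26-CreER crypts (background 20.2%, median -0.04), and 5 rose and 2 fell in the villi (background 33.2%, median 0.45). In Vil1-CreER crypts, where Myc itself was not called, 15 rose and 1 fell (background 29.3%, median 0.48 against 0.01 over all genes), and in the villi 10 rose and none fell (background 42.5%, median 0.96). In the first organoid set 4 rose and 2 fell (background 35.4%), in the second 2 rose and 8 fell against flox/+ (background 46.8%, median -0.05), and in flox/flox spheroids 1 rose and none fell (background 19.1%). Srm, which encodes spermidine synthase, rose by 1.23 ± 0.14 in Vil1-CreER crypts (adjusted p = 5.55e-04) and by 1.99 ± 0.47 in the villi (adjusted p = 0.00444). Mycl, a paralog of Myc, fell by 1.54 ± 0.20 in Rosa26-CreER crypts (adjusted p = 0.00125), by 1.17 ± 0.17 in the first organoid set (adjusted p = 0.00217) and by 1.22 ± 0.11 in the second set against flox/+ (adjusted p = 4.43e-07).

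Loss of 1 copy, with the other kept, gave no call among the 7 genes. Between flox/+ and CreER-only organoids, where Eif4g2 was 683.7 against 1099.5 CPM, 0.113% of all genes were called. Of the 7, Apaf1 (-0.22 ± 0.07) and Cdkn1b (0.20 ± 0.07) had an unadjusted p under 0.05, each with an adjusted p of 0.297, and DESeq2 called none. In flox/+ spheroids Eif4g2 was 455.6 CPM with 4-OHT and 794.7 CPM with DMSO, with no overlap but no call (adjusted p = 1.00). There 0% of all genes were called, the 7 values ran from -0.10 to 0.09, and none had an unadjusted p under 0.05 or a call with DESeq2. This fit did not pair 4-OHT with DMSO of the same line, although residual correlations within these lines were 0.556 to 0.767. Only 15 of all 15032 genes tested had an unadjusted p under 0.05. The fit could thus hardly call any gene, and the lack of calls does not show that the 7 were unchanged. Xiap there was 186.5 to 301.9 CPM with 4-OHT and 224.6 to 293.2 CPM with DMSO, and Apaf1 was 70.4 to 99.2 and 57.4 to 96.8 CPM, so both genes overlapped widely. Without 4-OHT, flox/flox and flox/+ spheroids also had 0% of genes called and none of the 7 at an unadjusted p under 0.05 or with DESeq2. For the difference between the 4-OHT effects in flox/flox and flox/+ spheroids 1.62% of all genes were called and none of the 7. Of these, 2 had an unadjusted p under 0.05 and DESeq2 called 1, Apaf1. With each line as a block Apaf1 was called, and so was Xiap (0.44, adjusted p = 0.0155).

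Crypts and villi were also compared with each other. In heterozygous Rosa26-CreER mice 6 of the 7 differed between crypts and villi, where 71.6% of all genes did, and in heterozygous Vil1-CreER mice 5 did, where 64.6% did. Myc was 92.8 to 122.6 CPM in Rosa26-CreER crypts and 0.826 to 5.93 CPM in villi of the same mice, a log2 fold change of 5.48 ± 0.40 (adjusted p = 7.99e-10), and 4.42 ± 0.37 in Vil1-CreER mice (adjusted p = 2.65e-08). Trp53 was likewise higher in crypts, at 128.0 to 166.8 against 24.6 to 31.0 CPM, by 2.29 ± 0.11 (adjusted p = 1.79e-11) and 2.02 ± 0.12 in Vil1-CreER mice (adjusted p = 6.63e-10). Both genes were higher in the crypts of every mouse.

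Xiap, Apaf1 and Birc2 ran the other way. In Rosa26-CreER mice Xiap was lower in crypts by 1.28 ± 0.12, Apaf1 by 1.34 ± 0.19 and Birc2 by 0.82 ± 0.11 on the log2 scale (adjusted p = 1.22e-08, 3.32e-06 and 1.73e-06), in 5 of 5 mice each. In Vil1-CreER mice the falls were 1.17 ± 0.16, 1.40 ± 0.20 and 0.66 ± 0.13 (adjusted p = 3.62e-06, 6.87e-06 and 2.44e-04), in 4 of 4 mice each. No crypt library of these genes reached a villus library. The tissues also differed in their epithelial marker sums, at 8205.3 to 9907.8 CPM in Rosa26-CreER crypts and 17236.1 to 19502.2 CPM in villi, and the part of cell mix in the result was not tested.

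Bcl2 was higher in Rosa26-CreER crypts by 0.70 ± 0.25 (adjusted p = 0.0190), in 4 of 5 mice and with overlap, and its call was lost without any 1 of villus replicates 1, 2 and 4 (adjusted p up to 0.0558). In Vil1-CreER mice its value was 0.24 ± 0.25 (adjusted p = 0.403). Cdkn1b was not called in either line, at 0.14 ± 0.11 and -0.18 ± 0.11 (adjusted p = 0.268 and 0.146).

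**Figure D3:**
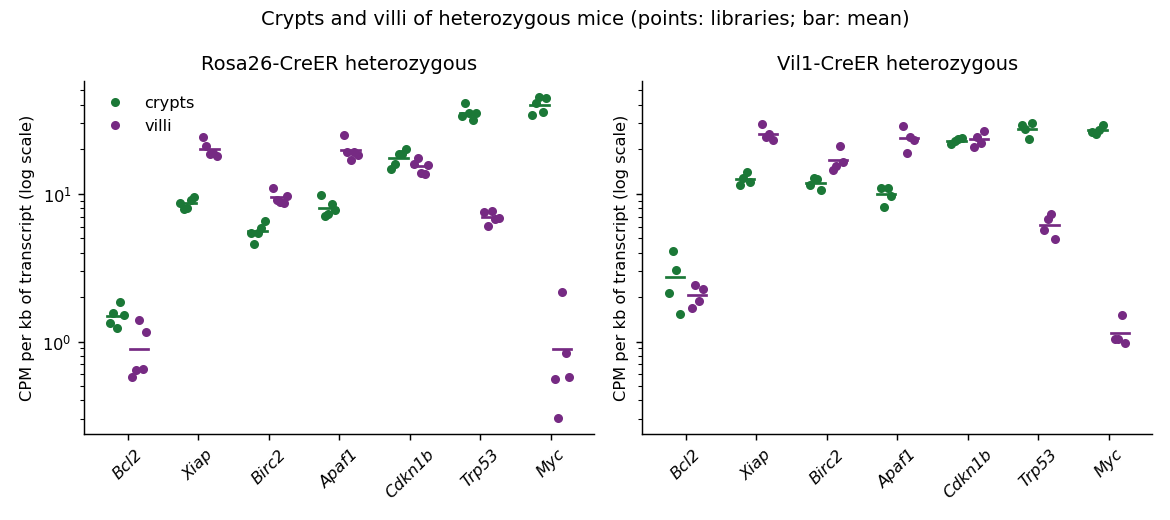
Level of the 7 genes in CPM per kb of transcript (log y axis) in crypts (green) and villi (purple) of heterozygous mice, with 1 point per library and a bar at the mean, for Rosa26-CreER (left) and Vil1-CreER (right). Myc and Trp53 are highest in crypts, and Xiap, Birc2 and Apaf1 lie higher in villi than in crypts.

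Compared per length, as CPM per kb of transcript, Myc (mean 40.1) and Trp53 (35.4) were the most abundant of the 7 in heterozygous Rosa26-CreER crypts, followed by Cdkn1b (17.5), Xiap (8.61), Apaf1 (8.07), Birc2 (5.56) and Bcl2 (1.50). In the villi of these mice Xiap (20.1) and Apaf1 (19.7) led, their libraries overlapping, before Cdkn1b (15.3), Birc2 (9.45), Trp53 (6.99), Myc (0.892) and Bcl2 (0.889). In these villi the libraries of Myc and Bcl2 overlapped, and Myc was the lower in 3 of 5. In Vil1-CreER heterozygous villi Myc was the lowest of the 7 (1.14, against 2.07 for Bcl2), and in the other 19 groups Bcl2 had the lowest mean. Over the 21 group means Myc spanned 2.42 to 198.6 CPM, an 81.9-fold range, and Bcl2 3.62 to 39.0 CPM, a 10.8-fold range. The ranges were 6.48-fold for Apaf1, 6.09-fold for Trp53, 4.35-fold for Xiap and 3.94-fold for Birc2.

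Fetal spheroids were compared with organoids of the second set, both flox/+ with 4-OHT. Of the 7 genes 3 were called, where 37.9% of all genes were. Xiap was 186.5 to 301.9 CPM in spheroids and 124.2 to 127.4 CPM in organoids (1.11 ± 0.13, adjusted p = 1.71e-07). Apaf1 was 70.4 to 99.2 against 48.3 to 52.3 CPM (0.80 ± 0.14, adjusted p = 5.59e-05), and Myc was 173.6 to 236.8 against 68.9 to 95.4 CPM (1.28 ± 0.22, adjusted p = 3.06e-05). No spheroid library overlapped the organoids for these genes, and the same 3 were called without the 4 lines with high crypt markers. The other 4 genes had values from -0.28 to 0.08. Of 8 stromal markers tested, 5 were higher in spheroids and none was lower, with a median log2 fold change of 5.55 against 0.03 over all genes. Their part in these results was not tested, and stage and culture set cannot be told apart here.

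Eif4g2 was 989.8 to 1467.6 CPM in the libraries given A-485 and 968.2 to 1084.4 CPM with DMSO, with no call at any dose. The comparisons with DMSO share the 4 DMSO libraries. At 3 µM 2 of the 7 genes were called, where 19.2% of all genes were; at 5 µM 4 were, where 49.6% were; at 10 µM 6 were, where 62.0% were. Xiap was 142.7, 137.7, 123.5 and 133.4 CPM with DMSO in lines 1 to 4. It was 220.8, 182.6, 154.0 and 279.4 CPM at 3 µM, 289.8, 262.6, 255.8 and 327.5 CPM at 5 µM, and 365.0, 338.1, 307.8 and 406.7 CPM at 10 µM. Every line was higher at each dose than at the one before. The log2 fold changes against DMSO were 0.66 ± 0.16 at 3 µM (adjusted p = 0.00605), 1.10 ± 0.16 at 5 µM (adjusted p = 1.51e-05) and 1.43 ± 0.16 at 10 µM (adjusted p = 3.60e-07). The level at 10 µM was the highest of the 21 groups for Xiap.

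Myc ran opposite, at 153.3, 136.0, 137.4 and 150.6 CPM with DMSO and 57.1, 69.0, 66.0 and 57.7 CPM at 10 µM. It fell by 0.37 ± 0.11 at 3 µM (adjusted p = 0.0283), 1.03 ± 0.11 at 5 µM (adjusted p = 8.94e-07) and 1.18 ± 0.11 at 10 µM (adjusted p = 6.56e-08), in 4 of 4 lines each. The library of line 4 at 3 µM stood apart, with a median correlation of 0.940 with its group against 0.966 or more for the others. Without line 4 the value at 3 µM was -0.34 with an adjusted p of 0.0541, and the call was also lost without any 1 of the DMSO libraries of lines 1 and 4 and the 3 µM library of line 1 (adjusted p up to 0.105). Trp53 was 160.2, 133.7, 170.6 and 143.7 CPM with DMSO and 95.9, 102.5, 91.2 and 71.0 CPM at 10 µM, with no overlap. It fell by 0.69 ± 0.14 at 5 µM (adjusted p = 6.32e-04) and by 0.73 ± 0.14 at 10 µM (adjusted p = 2.35e-04), and was not called at 3 µM (-0.16 ± 0.14, adjusted p = 0.491).

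Bcl2 changed sign over the doses. It was 20.7, 16.3, 21.7 and 16.1 CPM with DMSO, 21.2, 26.9, 26.9 and 30.2 CPM at 3 µM, 15.5, 14.3, 14.6 and 17.7 CPM at 5 µM and 12.9, 8.73, 8.63 and 7.64 CPM at 10 µM. The 3 µM value of 0.51 ± 0.18 was not called (adjusted p = 0.0550), although it was higher in 4 of 4 lines and was called with each line as a block (0.52, adjusted p = 0.0460), by DESeq2's test (0.49, adjusted p = 0.0448) and without the 3 µM library of line 1 (adjusted p = 0.0429). At 10 µM all lines were lower, by 0.95 ± 0.18 (adjusted p = 1.95e-04). Apaf1 rose to 93.9, 83.5, 73.5 and 93.5 CPM at 5 µM from 56.8, 70.2, 55.2 and 58.1 CPM (0.54 ± 0.11, adjusted p = 7.18e-04) and was 77.8, 74.6, 74.0 and 74.0 CPM at 10 µM (0.35 ± 0.11, adjusted p = 0.0134). Birc2 was called at 10 µM, at 32.9, 27.8, 30.6 and 31.5 against 23.8, 25.1, 22.5 and 23.2 CPM (0.40 ± 0.17, adjusted p = 0.0427). That call was lost with DESeq2's test (adjusted p = 0.0563) and without any 1 of the DMSO libraries or the 10 µM libraries of lines 1, 3 and 4 (adjusted p up to 0.0934). At 3 µM Birc2 had 32.0, 26.1, 25.3 and 42.8 CPM, all above DMSO, and was not called (0.44 ± 0.17, adjusted p = 0.0742) except without the library of line 3 (adjusted p = 0.0363). Cdkn1b was not called at any dose (0.06 to 0.17).

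**Figure D4:**
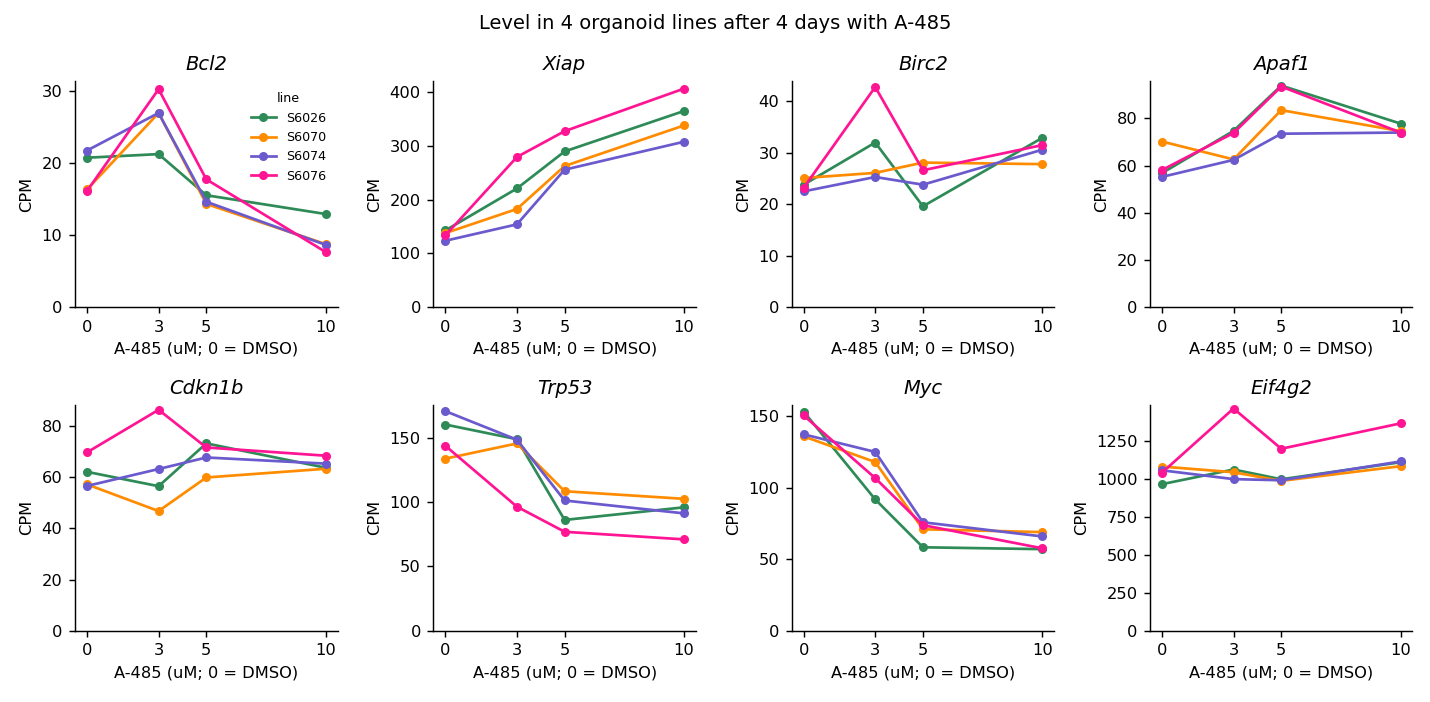
Level of the 7 genes and of Eif4g2 in CPM (y axes from 0) against the A-485 dose in µM (x axis, 0 for DMSO), with 1 coloured line per organoid line. Xiap is higher at each dose in all 4 lines, Myc is lower at 10 µM than with DMSO in all 4, and Bcl2 is highest at 3 µM and lowest at 10 µM.

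Between neighbouring doses, 5 of the 7 genes differed from 3 to 5 µM, where 24.5% of all genes did, and 1 from 5 to 10 µM, where 18.9% did. From 3 to 5 µM Bcl2 fell by 0.76 ± 0.18 (adjusted p = 0.00500), Trp53 by 0.53 ± 0.14 (adjusted p = 0.0109) and Myc by 0.66 ± 0.11 (adjusted p = 4.27e-04), in 4 of 4 lines each. Xiap rose by 0.44 ± 0.15 (adjusted p = 0.0452) and Apaf1 by 0.33 ± 0.11 (adjusted p = 0.0391), in 4 of 4 lines each. Both calls were lost when only the 2 doses were fitted (adjusted p = 0.133 and 0.112). Without any 1 of the 5 µM libraries of lines 1, 2 and 4 and the 3 µM libraries of lines 2 and 3 both calls were lost, and Xiap's also without the 3 µM library of line 1 (adjusted p up to 0.153 for Xiap and 0.133 for Apaf1). From 5 to 10 µM Bcl2 alone was called, with a fall of 0.71 ± 0.18 (adjusted p = 0.0106), and with each line as a block Xiap was called too (0.32, adjusted p = 0.0256).

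Against the backgrounds of 19.2%, 49.6% and 62.0% at 3, 5 and 10 µM, related genes were counted in the same way. Of the 18 genes activated by MYC none rose at any dose, and 5 fell at 3 µM, 17 at 5 µM and all 18 at 10 µM, with a median of -1.83 at 10 µM against -0.05 over all genes. Tfrc, which encodes the transferrin receptor, fell by 3.04 ± 0.14 (adjusted p = 1.14e-11). Of the 18 genes activated by p53, 10, 13 and 13 rose at the 3 doses and 0, 0 and 1 fell, and Mdm2 rose by 2.29 ± 0.17 at 10 µM (adjusted p = 2.03e-09). Of 3 anti-apoptotic relatives of Bcl2 tested all 3 rose at 10 µM, among them Bcl2l1 by 1.94 ± 0.18 (adjusted p = 4.09e-08), and Birc5 fell by 2.32 ± 0.20 (adjusted p = 1.31e-08). Crypt markers fell in 4, 7 and 7 of 7 genes at the 3 doses, with sums of 7206.3 to 8710.6 CPM with DMSO and 168.7 to 213.6 CPM at 10 µM. Their part in these results was not tested.

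Across the 21 group means of log2 CPM, the pattern of Trp53 was close to that of Myc (Pearson r = 0.97) and opposite to that of Apaf1 (-0.83). Apaf1 and Birc2 had r = 0.74, and Xiap and Myc had -0.26. These are descriptions over 21 points that share controls, tissues and lines. Of 8934 genes, those closest to Trp53 were Pelp1 (0.986), Vars (0.982) and Nup188 (0.981), and those closest to Myc were Rpl13a (0.980), Atic (0.979) and Prmt5 (0.975). The nearest to Xiap were Vps4b (0.968), Nbeal1 (0.947) and Scyl2 (0.940), to Birc2 Amn1 (0.947), Zup1 (0.920) and Gmeb2 (0.915), and to Apaf1 Blcap (0.917), Osbpl11 (0.915) and Ppp1r15b (0.913). Bcl2 was nearest to Mtf2 (0.888), Mtss1 (0.884) and Pms2 (0.883), and Cdkn1b, with the flattest profile, to C2cd5 (0.839), Gcc2 (0.837) and Fam149b (0.819).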

How the data were processed

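RNA-seq libraries (92, poly(A), directional by the dUTP method, per the labels' protocols) were aligned with HISAT2 2.0.5 to GRCm38 (mm10), per the submitters' processing notes. The authors deposited raw read counts per gene in 4 tables. The counting program, the annotation and the use of strand are not given in the sources used here. The 7 genes and the lists of related genes were chosen with earlier results of these data known.

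Counts were tested with edgeR 4.0.16 in R 4.3.3: genes with low counts removed (filterByExpr by group), TMM scaling, the robust quasi-likelihood F-test, and p-values adjusted by Benjamini-Hochberg over every gene tested (threshold 0.05). The SE is the log2 fold change divided by the root of F. Fits held only the groups compared for homozygous against heterozygous tissue and for the first organoid set. Crypts against villi, and the genotype effect in crypts minus that in villi, were taken in a fit of all tissue groups of a mouse line. Spheroids against organoids were taken in a fit of all groups of both sets. Elsewhere all groups of a set were fitted. Levels are CPM from 1 TMM scaling of all 92 libraries, or CPM per kb of the deposited gene length. Named genes were the 7, Eif4g2, at most the 2 largest rises and 2 largest falls per list and comparison among called genes, and for each of the 7 the 3 genes with the closest pattern.

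Alternatives were DESeq2 1.42.0 (its test, and its size factors in edgeR), no filter, other groups in the fit, a replicate block, a Y-linked covariate, and each library left out. Chosen after seeing the data were fits without 4 spheroid lines and without 1 A-485 line. Labels tie crypts to villi of 1 animal, and treatments to 1 line in the first organoid set, the spheroids and the A-485 set. Residual correlations within these pairs were 0.256 to 0.440 in the first organoid set, 0.271 to 0.767 in the spheroids, 0.0151 to 0.188 with A-485 and -0.00177 to 0.247 in tissue. No 2 libraries of a group agreed within sampling noise (164 pairs, smallest chi-square per degree of freedom 5.84). The fit was tested on simulated data. For flox/flox against flox/+ organoids (14220 genes), 70.1% of genes changed 1.5-fold and 88.1% of those changed 2-fold were recovered. For flox/flox spheroids (15032 genes) these shares were 9.0% and 50.7%. They were 14.9% and 58.2% for Rosa26-CreER crypts (15846 genes), and 19.4% and 62.7% for 10 µM A-485 against DMSO (13724 genes).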

Additional observations from a re-analysis of the deposited data

Results flagged for a closer look

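In fits that did not pair crypts with villi of the same animal, the genotype effect differed between the tissues, by an interaction term in edgeR's quasi-likelihood test, for Bcl2, Trp53 and Myc. For Bcl2 the effect in crypts minus that in villi was 1.73 for Rosa26-CreER (adjusted p = 0.00822, or 0.0638 with the animal as a block) and 1.95 for Vil1-CreER (adjusted p = 0.00272, called with the block too). For Trp53 it was -0.67 (adjusted p = 0.0149, or 0.0804 with the block) and -0.52 (adjusted p = 0.0423, or 0.0895 with the block). The latter call was also lost without any 1 of 11 of the 17 libraries, named in the account of Trp53. For Myc it was -1.79 in Vil1-CreER mice (adjusted p = 0.0185, called with the block too).

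In 8 of the 126 sets of 1 gene in 1 group of 4 to 10 libraries, a single library lay far from the others by Dixon's criterion, which chance alone meets in about 1 in 20 groups. Myc was 5.93 CPM in heterozygous Rosa26-CreER villus replicate 3, against 0.826 to 2.28 CPM in the other 4, and 4.10 CPM in heterozygous Vil1-CreER villus replicate 3, against 2.64 to 2.84 CPM. Trp53 was 96.4 CPM in line 4 at 3 µM A-485, against 145.5 to 148.8 CPM. Apaf1 was 77.8 CPM in line 1 at 10 µM A-485, against 74.0 to 74.6 CPM. It was 106.2 CPM in flox/flox replicate 2 of the second organoid set, against 94.9 to 95.7 CPM, and 49.6 CPM in CreER-only replicate 4, against 61.9 to 63.4 CPM. In flox/flox spheroids with DMSO it was 60.9 CPM in replicate 4, against 80.6 to 92.3 CPM. Bcl2 was 26.3 CPM in flox/+ replicate 3 of the second organoid set, against 23.8 to 24.2 CPM.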

How the results depend on the processing

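Of the 161 log2 fold changes of the 7 genes, 154 kept their direction and side of the threshold with DESeq2's test, 158 with its size factors, 155 without a filter and 138 with a replicate block. With other groups in the fit 136 of 140 did, with the Y-linked covariate 23 of 28, and with each library left out 1505 of 1645. The 4 spheroid lines and the A-485 line were left out after seeing the data. The causes of the changes below were not tested. Groups of 3 to 6 libraries and counts as low as 15 per library (Myc in villi) limit what could be called.

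The number of the 7 genes called moved with the replicate block to 0 in Rosa26-CreER crypts, 2 in Vil1-CreER crypts, 0 for the Rosa26-CreER difference between crypts and villi, 4 in flox/flox spheroids, 0 between spheroid genotypes with 4-OHT, 2 for the spheroid difference in 4-OHT effect and 2 between 10 and 5 µM A-485. In the comparisons of different mice or cultures the block joins libraries that share only a number. Paired by animal or line, the block changed no other count by over 1.5 times. The count was 1 in Rosa26-CreER villi with the Y-linked covariate, 1 in flox/flox spheroids without a filter and 1 without the 4 lines, 1 for the spheroid difference with DESeq2, 1 at 3 µM A-485 without 1 line, and 3 between 5 and 3 µM with only those doses fitted. With single libraries left out the counts ran from 1 to 5 in Rosa26-CreER crypts, 1 to 2 in Vil1-CreER crypts, 1 to 4 for the Rosa26-CreER difference, 1 to 2 in flox/flox spheroids, 0 to 1 for the spheroid difference, 1 to 3 at 3 µM A-485 and 3 to 5 between 5 and 3 µM.

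Only log2 fold changes that were not called changed sign. With the block these were Birc2 in Vil1-CreER crypts (-0.02), Xiap in flox/+ spheroids (-0.01), Cdkn1b (0.00) and Trp53 (0.00) between spheroid genotypes with 4-OHT, Birc2 between them with DMSO (0.01) and Trp53 between spheroids and organoids (-0.04). Without the 4 lines they were Myc in flox/flox spheroids (0.12), Bcl2 (-0.12), Birc2 (0.16) and Myc (-0.06) in flox/+ spheroids, Birc2 (0.14) and Trp53 (0.04) with DMSO, Myc for the difference in 4-OHT effect (0.18) and Trp53 between spheroids and organoids (-0.12). Without 1 line Cdkn1b at 3 µM A-485 was -0.07.

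With single libraries left out, values spanned 0 as follows. In Vil1-CreER crypts Apaf1 ran from -0.16 to 0.02, Birc2 from -0.03 to 0.07 and Trp53 from -0.06 to 0.05. Bcl2 ran from -0.01 to 0.44 between Vil1-CreER crypts and villi, Birc2 from -0.06 to 0.15 for the Rosa26-CreER and Cdkn1b from -0.02 to 0.13 for the Vil1-CreER difference. In the second organoid set Myc ran from -0.19 to 0.08 against CreER-only, and between flox/+ and CreER-only Bcl2 from -0.10 to 0.00, Birc2 from -0.02 to 0.04 and Trp53 from -0.05 to 0.07. Myc ran from -0.26 to 0.02 in flox/flox spheroids. In flox/+ spheroids Bcl2 ran from -0.08 to 0.12, Xiap from -0.06 to 0.10, Apaf1 from 0.00 to 0.17, Birc2 from -0.20 to 0.04, Cdkn1b from -0.14 to 0.24, Trp53 from -0.11 to 0.04 and Myc from -0.05 to 0.07. Between genotypes Cdkn1b ran from -0.10 to 0.22 with 4-OHT, and Apaf1 from -0.02 to 0.15 and Birc2 from -0.13 to 0.11 with DMSO. Between spheroids and organoids Bcl2 ran from -0.12 to 0.07 and Trp53 from -0.01 to 0.14. With A-485 Cdkn1b ran from -0.13 to 0.18 at 3 µM and from -0.02 to 0.30 between 5 and 3 µM, and Trp53 from -0.11 to 0.05 between 10 and 5 µM.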
